A study of Neurospora crassa with 22 samples.

Results

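Nonself recognition in *Neurospora crassa*, a filamentous fungus, is described here through the expression of 9 genes: *doc-1* (NCU07191), *doc-2* (NCU07192), *plp-1* (NCU09244), *sec-9* (NCU09243), *het-c* (NCU03493), *pin-c* (NCU03494), *het-6* (NCU03533), *vib-1* (NCU03725) and *rcd-1* (NCU05712). The genes were chosen by locus number for their known roles, from a proposal made with the strain difference in the same 6 libraries already known, so the strain values below are a description of these genes and no independent support for it. They are 9 of the 9730 genes in the deposited table, and all 9 were among the 7208 genes tested. The gene table gave a symbol to 4 of them (*het-6*, *pin-c*, *het-c* and *vib-1*), and the other names came with the list of genes.

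When hyphae or germinating conidia of *N. crassa* meet, they can fuse and share cytoplasm. Checkpoints act before and after this fusion. DOC-1 and DOC-2 act at a distance, before contact, and sort strains into groups that communicate. The *het* genes act after fusion: when the partners carry different alleles at a *het* locus, the fused cell is walled off and dies, a reaction called heterokaryon incompatibility. In germlings, death after fusion is also set off by the *plp-1* and *sec-9* genes and by *rcd-1*. Many of these loci are polymorphic between natural strains, and several occur as closely linked gene pairs. VIB-1 is a transcription factor needed for the reaction.

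Germinating conidia were grown for 5 hr in minimal medium, and RNA-seq was done on 3 libraries of an *hH1* mutant and 3 libraries of a wild-type strain. The series names its replicates biological but does not say that these libraries came from separate cultures, so the p-values measure the spread between them, which may be technical. The mutant lacks the function of *hH1*, the only gene for the linker histone H1 of this fungus, and carries no other treatment. The labels name the genotypes only as hH1 and wildtype and the tissue as mycelium. The strain list of the study holds wild types of both mating types, an *hH1* deletion strain of mating type *A* and an *hH1* strain made by repeat-induced point mutation, and the sources used here do not say which of them gave the RNA. The strains can also differ at other loci, and the absence of H1 and other differences in strain background cannot be told apart in this design.

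The values are FPKM, fragments per kilobase of transcript scaled to the mapped fragments of a library, which are per length and allow levels of different genes to be set side by side. The libraries of a strain are called the first, the second and the third in the order of the table. *hH1* itself (NCU06863) had 9.35, 2.06 and 3.22 FPKM in the mutant, against 266, 327 and 293 FPKM in the wild type. From the steps between low values, the depth was estimated at 5770000 to 9200000 fragments in the mutant libraries and 6510000 to 11290000 fragments in the wild-type libraries. The first mutant library stood apart: it listed 2185 genes at 0, where the other 5 libraries listed 1577 to 1712, and its depth rests on 5 low values.

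Of the 9 genes, 4 were lower in the *hH1* mutant in the fit across all genes (limma on log2(FPKM + 1), Benjamini-Hochberg adjusted p under 0.05), and 0 were higher. The 4 genes were *doc-1*, *doc-2*, *plp-1* and *het-6*. At an unadjusted p under 0.05, 1 gene (*sec-9*) was higher. Over all 7208 tested genes, 4.99% were called in either direction and 3.26% were called lower, against 1.73% called higher. The median log2 change was -0.12 over the 9 genes and -0.09 over all tested genes. The libraries of the strains did not overlap in 7 of the 9 genes, with 5 lower and 2 higher in the mutant, where 32.3% of all tested genes had libraries that did not overlap.

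**Figure D1:**
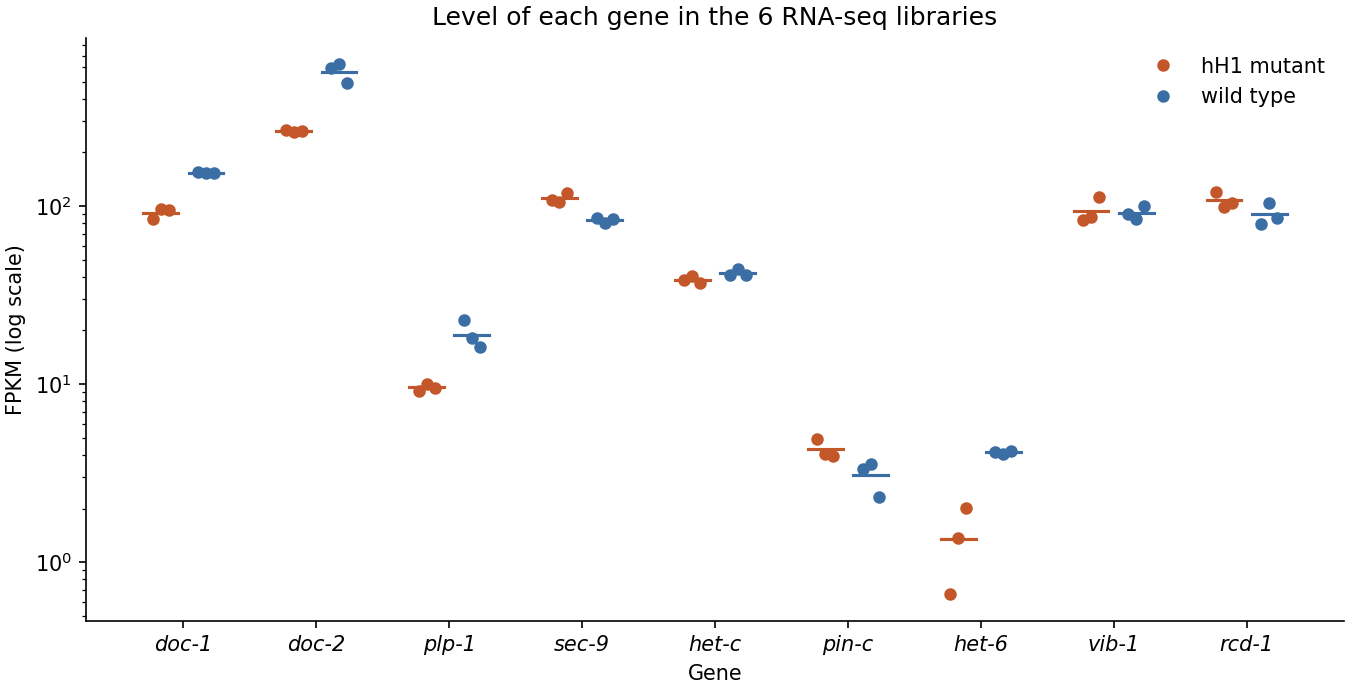
FPKM (log axis) of the 9 genes in each of the 3 *hH1* libraries (orange, left of each pair) and 3 wild-type libraries (blue, right of each pair), with the strain mean as a line. *doc-1*, *doc-2*, *plp-1* and *het-6* lie lower in the mutant without overlap, while *vib-1* and *rcd-1* overlap.

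The largest of these differences in FPKM lay in the *doc* pair. *doc-1* and *doc-2* lie next to each other on LG V of the NC12 assembly (6286497 to 6290398 and 6282213 to 6285646), with 850 bases between them. *doc-2* had 266, 262 and 263 FPKM in the mutant libraries, against 595, 626 and 488 FPKM in the wild-type libraries. The mutant values were nearly equal to each other and lay far below the lowest wild-type library. The mean was 264 ± 2.32 FPKM in the mutant and 570 ± 72.0 FPKM in the wild type (SD, n = 3 each), so the mutant held 46.3% of the wild-type level. The log2 change was -1.10 with a standard error of 0.12 (limma, Benjamini-Hochberg adjusted p = 0.00165). Among the 7208 tested genes, 82 had a more negative log2 change.

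*doc-1* had 84.7, 95.9 and 95.3 FPKM in the mutant, against 154, 153 and 153 FPKM in the wild type. Here the wild-type libraries were nearly equal, and every mutant library lay far below them. The mean was 92.0 ± 6.32 FPKM in the mutant and 154 ± 0.814 FPKM in the wild type (SD, n = 3 each), or 59.9% of the wild-type level. Its log2 change was -0.74 with a standard error of 0.11 (limma, Benjamini-Hochberg adjusted p = 0.00957). *doc-1* and *doc-2* were the 2 genes of the 9 that were called in every alternative and in each fit without 1 library.

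Within a library, *doc-2* stood at 3.14, 2.73 and 2.76 times the FPKM of *doc-1* in the mutant and at 3.85, 4.09 and 3.19 times in the wild type. The lowest wild-type ratio was close to the highest mutant ratio. The ratio, which does not depend on how libraries are scaled to each other, averaged 2.88 ± 0.231 in the mutant and 3.71 ± 0.465 in the wild type (SD, n = 3 each). An exact two-sided permutation test on the difference in mean log2 ratio gave p = 0.1, which is the smallest that 3 libraries against 3 allow. In this way 4 such ratios were tested, each with permutation p = 0.1 also after Benjamini-Hochberg adjustment.

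*plp-1* and *sec-9* lie 766 bases apart on LG I (9429592 to 9434496 and 9435263 to 9437199). PLP-1 is a receptor-like protein with a patatin-like phospholipase domain, and SEC-9 is a SNARE protein of the kind that drives membrane fusion. The neighbours differed from each other in direction. *plp-1* had 9.17, 10.02 and 9.53 FPKM in the mutant, against 22.8, 18.0 and 16.1 FPKM in the wild type. All 3 mutant libraries lay below all wild-type libraries, at 50.5% of the wild-type mean. Its mean was 9.57 ± 0.426 FPKM in the mutant and 19.0 ± 3.47 FPKM in the wild type (SD, n = 3 each), and its log2 change was -0.90 with a standard error of 0.16 (limma, Benjamini-Hochberg adjusted p = 0.0180). Without the second or the third mutant library the log2 change was -0.93 or -0.90, but the adjusted p was 0.0527 or 0.0505 (limma, Benjamini-Hochberg). Without the first wild-type library the log2 change was -0.77 and the adjusted p 0.0830 (limma, Benjamini-Hochberg; 0.0135 to 0.0830 over all alternatives).

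*sec-9* had 108, 106 and 119 FPKM in the mutant, against 86.0, 79.8 and 84.2 FPKM in the wild type. The groups did not overlap, with every mutant library above the wild-type ones, but the gene was not called. Its mean was 111 ± 7.09 FPKM in the mutant and 83.3 ± 3.19 FPKM in the wild type (SD, n = 3 each). The log2 change was 0.41, with a 95% interval of 0.16 to 0.66 before adjustment (limma, Benjamini-Hochberg adjusted p = 0.0651). When each library was centred on its median, the log2 change was 0.51 and the adjusted p was 0.0278, the lowest of its alternatives, which reached 0.173 (limma, Benjamini-Hochberg).

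The ratio of *sec-9* to *plp-1* within a library was 11.8, 10.5 and 12.5 in the mutant, against 3.77, 4.42 and 5.24 in the wild type. Of the 3 adjacent pairs, this ratio differed most between the strains: it averaged 11.6 ± 0.981 in the mutant and 4.48 ± 0.737 in the wild type (SD, n = 3 each; exact two-sided permutation p = 0.1, again the smallest possible). *sec-9* is the shorter gene of the pair (1937 bases, against 4905 for *plp-1*), and the strain difference ran with gene length, as described below. With the trend with length removed, the log2 changes were 0.38 for *sec-9* and -0.62 for *plp-1*, still of opposite sign.

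*het-c* and *pin-c* form the other adjacent pair, on LG II (490974 to 494540 and 487248 to 490231), with 742 bases between them. HET-C is a glycine-rich protein with a signal peptide, and PIN-C carries the HET domain shared by many fungal incompatibility proteins. Alleles of *het-c* and *pin-c* act together in the incompatibility reaction. *het-c* had 38.3, 40.4 and 36.8 FPKM in the mutant, against 40.8, 44.1 and 41.2 FPKM in the wild type. The groups did not overlap, but their nearest libraries, 40.4 and 40.8 FPKM, were almost level. The log2 change was -0.12, with a 95% interval of -0.39 to 0.14 (limma, Benjamini-Hochberg adjusted p = 0.529).

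*pin-c* was a low gene, with 4.89, 4.05 and 3.97 FPKM in the mutant and 3.34, 3.57 and 2.34 FPKM in the wild type. Every mutant library was higher than every wild-type library, by a small margin. At these levels and the estimated depths, *pin-c* stood for at most 63.5 to 125 fragments in a mutant library. In a wild-type library it stood for at most 60.2 to 90.8. Here the gene length with introns was taken for the length of the transcript. The log2 change of *pin-c* was 0.39, with a 95% interval of -0.11 to 0.88 (limma, Benjamini-Hochberg adjusted p = 0.295). The ratio of *het-c* to *pin-c* was 7.83, 9.97 and 9.29 in the mutant, against 12.2, 12.3 and 17.6 in the wild type (exact two-sided permutation p = 0.1, again the smallest possible).

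**Figure D2:**
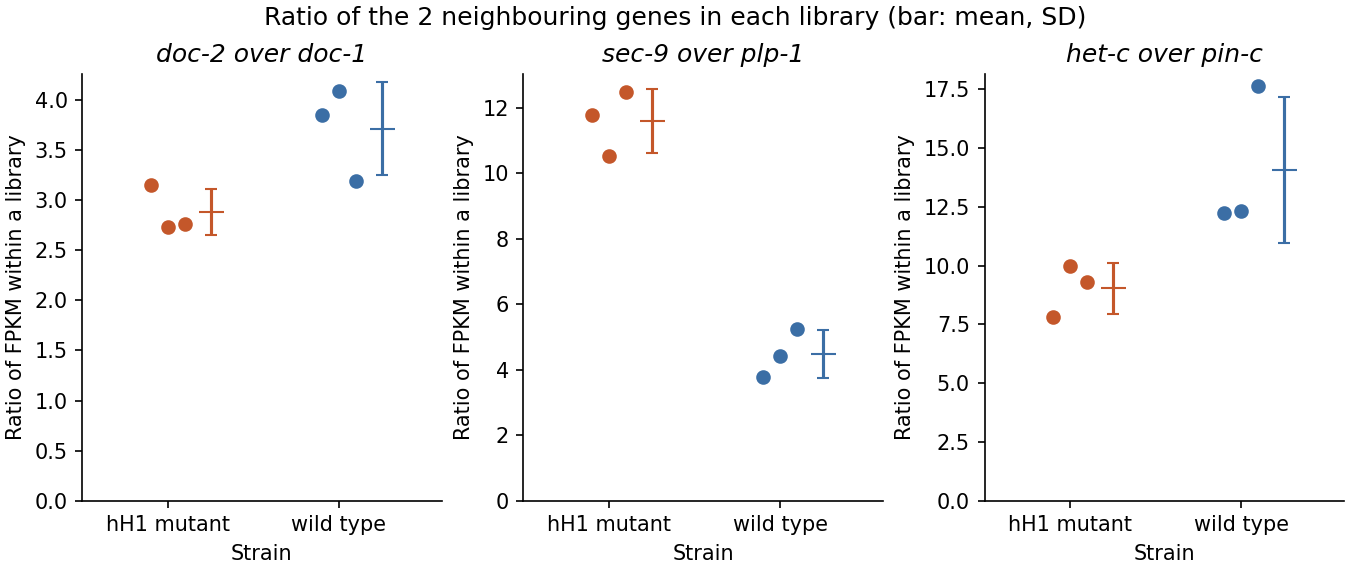
Ratio of FPKM of the neighbouring genes *doc-2* and *doc-1*, *sec-9* and *plp-1*, and *het-c* and *pin-c* within each library (points), with the mean and SD beside them, for the *hH1* mutant (left) and the wild type (right). The ratio of *sec-9* to *plp-1* was 10.5 to 12.5 in the mutant and 3.77 to 5.24 in the wild type.

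*het-6* also lies on LG II (337789 to 340145) and encodes another HET-domain protein. It acts together with *un-24*, the gene of the large subunit of ribonucleotide reductase, in the incompatibility of the *het-6* locus. *het-6* had 0.659, 1.37 and 2.02 FPKM in the mutant, against 4.15, 4.04 and 4.21 FPKM in the wild type. The wild-type libraries were close to each other, while the mutant libraries spread over a wide range, and all lay lower. The mean was 1.35 ± 0.681 FPKM in the mutant and 4.14 ± 0.0880 FPKM in the wild type (SD, n = 3 each), or 32.7% of the wild-type level. At the estimated depths these are few fragments, at most 13.02, 22.1 and 25.03 in the mutant libraries. In the wild-type libraries they are at most 58.1, 79.5 and 102. These bounds cover the transcript length and not the error of the depth, which for the first mutant library rests on 5 low values. On the log2 scale the change was -1.17 with a standard error of 0.28 (limma, Benjamini-Hochberg adjusted p = 0.0408). This call was lost without each of the libraries in turn, with adjusted p between 0.0505 and 0.154 (limma, Benjamini-Hochberg) and log2 changes between -1.37 and -0.94.

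*vib-1* (LG V, 2215819 to 2219221) encodes a transcription factor of the Ndt80 family that *N. crassa* needs for heterokaryon incompatibility and for the expression of *pin-c*, *het-6* and *tol*. Its summed level was 83.6, 86.9 and 112 FPKM in the mutant, against 89.8, 85.1 and 100 FPKM in the wild type. The libraries of the strains were mixed, and the log2 change was 0.03, with a 95% interval of -0.28 to 0.34 (limma, Benjamini-Hochberg adjusted p = 0.915). *vib-1* was the only one of the 9 genes with 2 annotated transcripts. The first of them, T0, took 0%, 33.3% and 33.3% of the level in the mutant libraries, against 24.97%, 15.8% and 28.0% in the wild-type libraries. The first mutant library, which listed the most genes at 0, also listed this transcript at 0, and no strain difference in the share can be read from these values.

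*rcd-1* (LG III, 599368 to 600708) encodes a protein related to the pore-forming gasdermins of animals. It had 120, 99.4 and 104 FPKM in the mutant, against 79.7, 105 and 85.1 FPKM in the wild type. The second wild-type library lay above 2 mutant libraries, so the groups overlapped. This gave a log2 change of 0.26, with a 95% interval of -0.04 to 0.57 (limma, Benjamini-Hochberg adjusted p = 0.250).

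**Figure D3:**
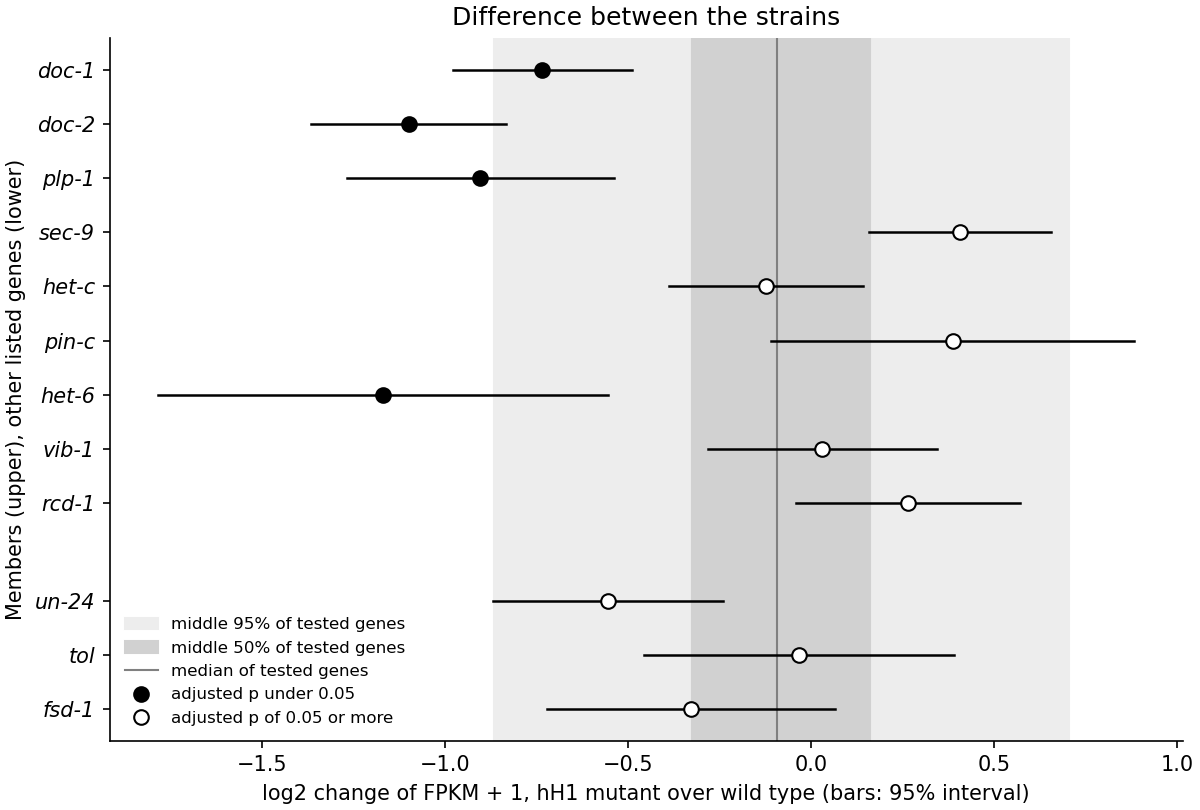
log2 change of FPKM + 1 in the *hH1* mutant over the wild type for the 9 genes and for *un-24*, *tol* and *fsd-1*, with 95% intervals before adjustment; *matA-1*, called higher, is not drawn because it was listed at 0 in the wild type. Filled points have an adjusted p under 0.05, and the gray bands hold the middle of all tested genes. *doc-2* (-1.10) and *het-6* (-1.17) lie farthest to the left.

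In order of level, the 9 genes ranged widely in both strains. In the mutant, *doc-2* was highest with a mean of 264 FPKM, above 96.4% of all 9730 genes. It was followed by *sec-9*, *rcd-1*, *vib-1* and *doc-1*, whose means lay between 111 and 92.0 FPKM and whose neighbours in this order overlapped. Then came *het-c*, *plp-1*, *pin-c* and *het-6*, each separate from the next in all libraries. In the wild type, *doc-2* was also highest, above 98.1% of all genes, and *doc-1* was next and separate from the genes below it. *vib-1*, *rcd-1* and *sec-9* followed with means of 91.7, 89.8 and 83.3 FPKM and overlapped with their neighbours in the order. At the low end, *het-6* and *pin-c* changed places: *het-6* was lowest in the mutant, at 1.35 FPKM against 4.30 FPKM for *pin-c*, while in the wild type *pin-c* was lowest, at 3.08 FPKM against 4.14 FPKM for *het-6*. These low genes stood above 28.8% (*het-6*) and 39.2% (*pin-c*) of all genes in the mutant, against 37.0% and 33.9% in the wild type.

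Other genes of nonself recognition were looked up by symbol. Of 11 symbols, 4 were in the gene table (*un-24*, *tol*, *fsd-1* and *matA-1*), and *cwr-1*, *cwr-2*, *czt-1*, *aif-1*, *mca-1*, *casA* and *casB* were not matched. Of the 4 genes, 1 was called higher in the mutant and 0 were called lower (limma; 1, *un-24*, was lower at an unadjusted p under 0.05). Over all tested genes, 1.73% were called higher and 3.26% were called lower. The gene called higher, *matA-1*, passed the filter (a mean of at least 1 FPKM) only through the mutant libraries. The median log2 change of the 4 genes was -0.18, against -0.09 over all tested genes. *un-24* (NCU03539), the partner of *het-6*, had 33.6, 42.9 and 39.5 FPKM in the mutant, against 51.8, 64.5 and 55.3 FPKM in the wild type. All mutant libraries lay below the wild type, and the gene was just outside the threshold (log2 change -0.55, standard error 0.14; limma, Benjamini-Hochberg adjusted p = 0.0516, and 0.0442 to 0.206 over the alternatives). *un-24* stood at 50.9, 31.2 and 19.5 times the FPKM of *het-6* in the mutant, against 12.5, 16.0 and 13.1 times in the wild type (exact two-sided permutation p = 0.1, again the smallest possible). The mutant ratios varied widely and lay above all wild-type ratios.

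*tol* (NCU04453), a HET-domain gene that mediates incompatibility between mating types, had 5.62, 4.55 and 4.38 FPKM in the mutant, against 4.89, 5.14 and 4.85 FPKM in the wild type. Its log2 change was -0.03, with a 95% interval of -0.46 to 0.39 (limma, Benjamini-Hochberg adjusted p = 0.9305), and turned to 0.07 when libraries were centred. *fsd-1* (NCU09915), a gene of the same family as *vib-1* with a role in sexual development, had 5.12, 4.65 and 4.70 FPKM in the mutant, against 6.48, 5.93 and 6.53 FPKM in the wild type. It did not overlap between the strains but was not called (log2 change -0.33, standard error 0.18; limma, Benjamini-Hochberg adjusted p = 0.262).

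*matA-1* (NCU01958, LG I 1860692 to 1862194) specifies mating type *A* and also acts as an incompatibility gene against the other mating type. It had 2.60, 1.75 and 3.83 FPKM in the mutant and was listed at 0 in every wild-type library. At the estimated depths, the mutant values stood for few fragments, at most 30.9, 16.9 and 28.6. *matA-1* was the gene called higher (limma, Benjamini-Hochberg adjusted p = 0.0180). It passed the filter only through the mutant libraries, where it was high, so the call describes these values and gives no independent support for a difference. Without the first wild-type library the gene was still listed at 0 in the others but was not called (limma, Benjamini-Hochberg adjusted p = 0.0721, and 0.0106 to 0.0962 over the alternatives), and without the third mutant library the gene was under the filter. The strains thus differed in the listed level of a nonself gene that is not *hH1*. The strain list holds wild types of both mating types. Whether the wild type here lacked *matA-1* or carried it without expression was not tested. *plp-1* and *sec-9*, on the same linkage group, lie 7.57 megabases from it. How much of the difference at the 9 genes goes with strain background, or with how well reads of a polymorphic allele aligned to the NC12 sequence, was not tested.

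Genes beside the 6 loci of the 9 genes were compared to see whether the strain difference extended to them. The 5 nearest tested genes on each side of each locus make 60 genes. Of these, 2 were called lower and 2 higher in the mutant (6.67%, against 4.99% of all tested genes). The farthest of the 60 lies 55357 bases from its locus. Beside *doc-1* and *doc-2*, 0 of 10 genes were called (limma; 1 was higher and 0 lower at an unadjusted p under 0.05), and their log2 changes had a median of -0.12 with a range of -0.996 to 0.38. The lowest of them was NCU07193, 1362 bases from *doc-2*. It had 0.210, 3.61 and 2.90 FPKM in the mutant, against 6.71, 4.65 and 2.96 FPKM in the wild type, and was not called (limma, Benjamini-Hochberg adjusted p = 0.208).

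Beside *plp-1* and *sec-9*, NCU09249 was called higher in the mutant (limma, Benjamini-Hochberg adjusted p = 0.0418). Its log2 change was 0.73 with a standard error of 0.17, and it lies 16452 bases from *plp-1*. It had 20.2, 20.3 and 25.1 FPKM in the mutant, against 11.5, 11.2 and 16.0 FPKM in the wild type. Beside *het-c* and *pin-c*, NCU03498 (log2 change -0.74) and NCU03495 (log2 change -0.80) were called lower (limma, Benjamini-Hochberg adjusted p = 0.0295 and 0.0492). NCU03498 lies 10443 bases from *pin-c*. NCU03495 lies 1659 bases from *pin-c*, which itself had a positive log2 change. Beside *vib-1*, NCU03731 was called higher (log2 change 1.03, standard error 0.19; limma, Benjamini-Hochberg adjusted p = 0.0188). NCU03731 lies 16942 bases from *vib-1*. It had 62.6, 42.3 and 60.5 FPKM in the mutant, against 20.7, 27.6 and 30.8 FPKM in the wild type.

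Beside *het-6*, 0 of 10 genes were called (limma; 4 were lower and 0 higher at an unadjusted p under 0.05). The 5 genes on the side of *un-24*, which is itself the farthest of them at 18436 bases, had log2 changes of -0.57 to -0.34, all below the median of all tested genes. The 5 genes on the other side had log2 changes of -0.21 to 0.16. The genes on the side of *un-24* were 1714 to 4891 bases long, and those on the other side 1321 to 3394. With the length trend described below removed, *un-24* was at -0.32 (limma, Benjamini-Hochberg adjusted p = 0.206). How much of the contrast between the sides goes with gene length was not tested. Beside *rcd-1*, 0 of 10 genes were called (limma; 1 was lower at an unadjusted p under 0.05), with log2 changes of -0.56 to 0.27.

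**Figure D4:**
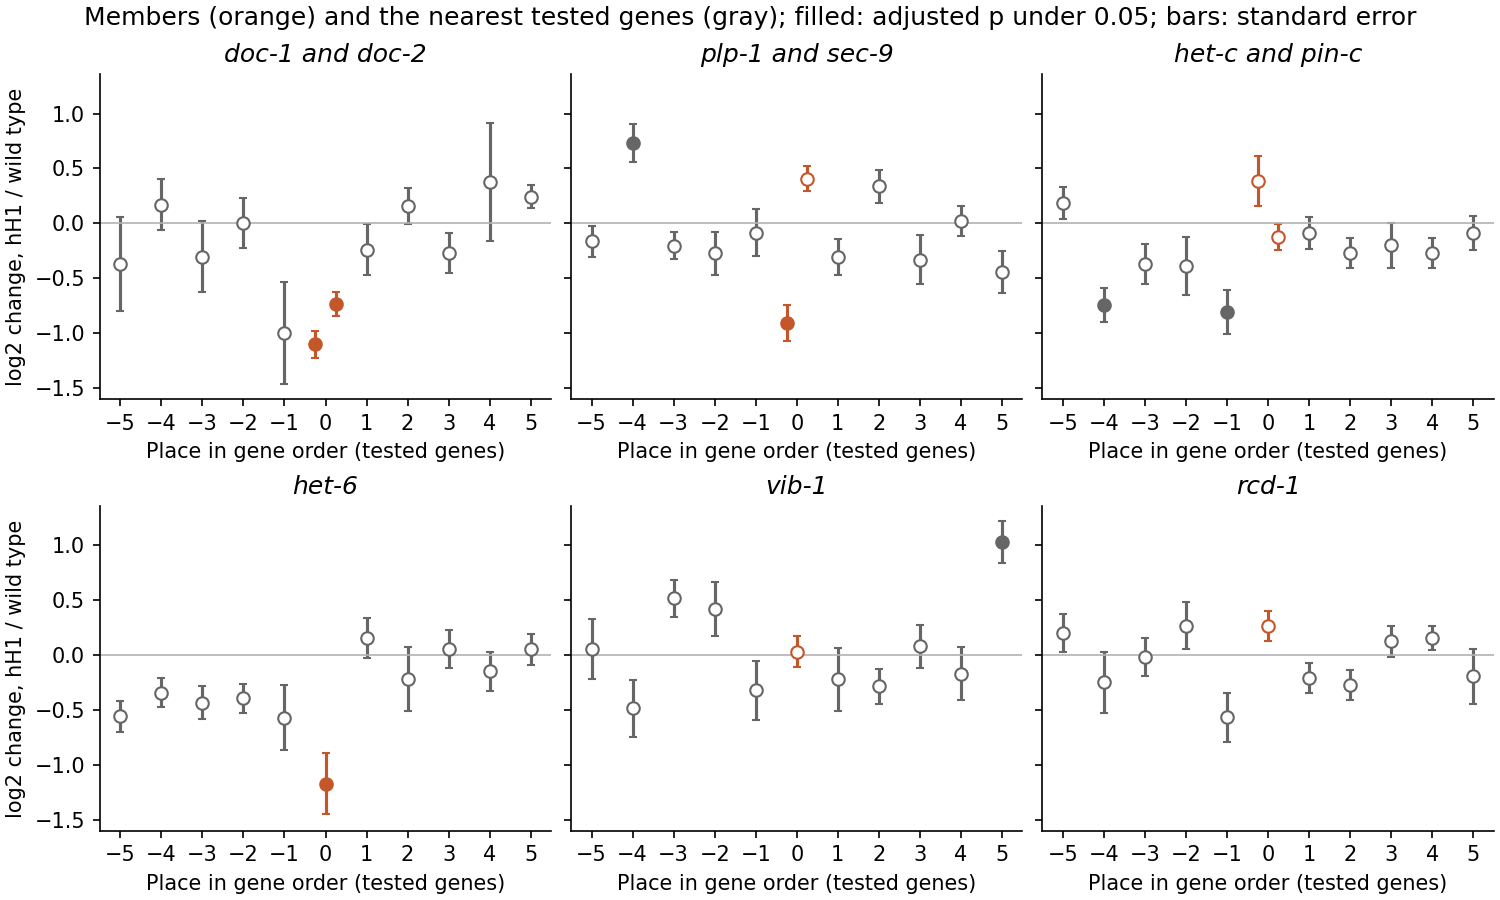
log2 change (hH1 mutant over wild type) of the 9 genes (orange, near place 0) and of the 5 nearest tested genes on each side (gray), by place in the gene order of the linkage group, with standard errors. Filled points have an adjusted p under 0.05. Around *doc-1* and *doc-2* the 10 neighbours were not called, and *plp-1* and *sec-9* lie on opposite sides of 0.

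Gene length ran along with the strain difference over all genes, so the 9 genes were also compared with this trend removed. Across 7207 tested genes, which are not independent replicates, the Spearman correlation of log2 change with gene length was -0.35. The median log2 change was 0.12 in the shortest of 5 nearly equal groups by length, which holds *rcd-1*, and -0.28 in the longest, which holds *doc-1* and *plp-1*. *sec-9*, with a positive log2 change, is short (1937 bases), and *plp-1*, with a negative one, is the longest of the 9 (4905 bases). When the trend with length was removed from each library, the log2 change was -0.91 for *doc-2* and -0.50 for *doc-1*, which were both still called (limma, Benjamini-Hochberg adjusted p = 0.00881 and 0.0313). It was -0.62 for *plp-1* and -1.12 for *het-6*, which were no longer called (adjusted p = 0.0678 and 0.0516), and 0.38 for *sec-9* (adjusted p = 0.0830; all limma, Benjamini-Hochberg). With the trend removed, *het-c* was at 0.08, of opposite sign, and stayed without a call. *vib-1* had 0.22, *rcd-1* 0.14 and *pin-c* 0.52.

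**Figure D5:**
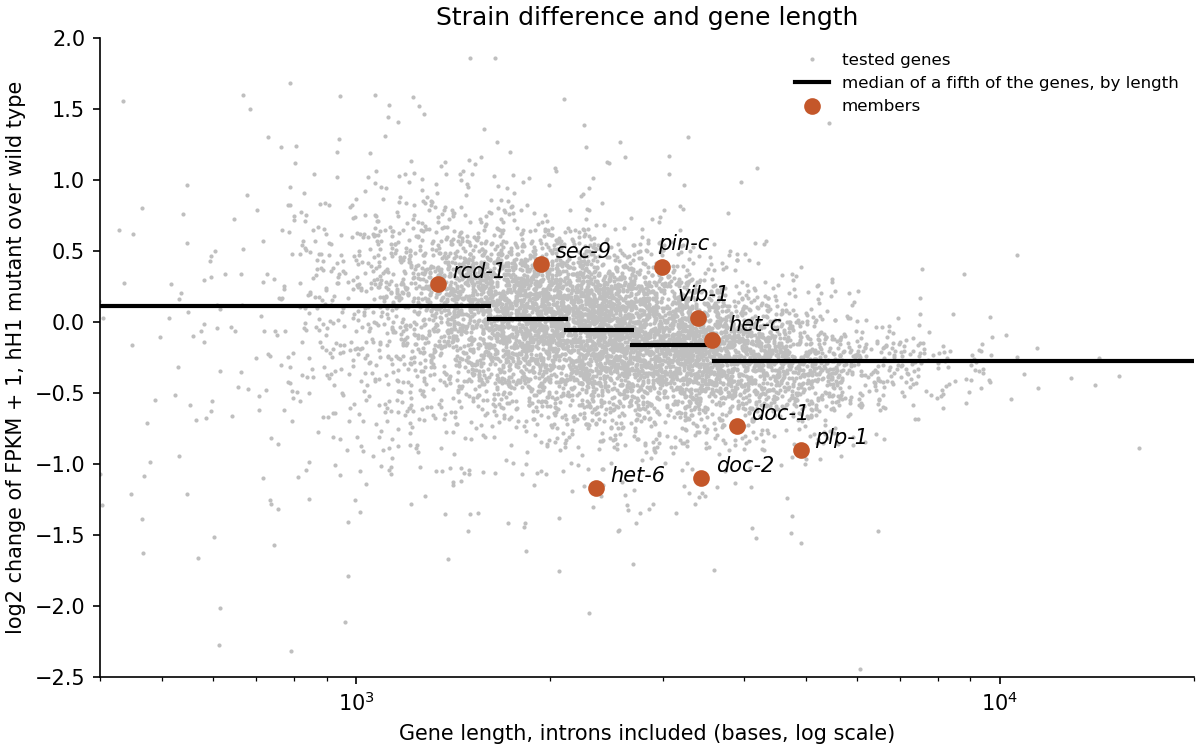
log2 change in the *hH1* mutant over the wild type against gene length with introns (log axis) for all tested genes (gray; 19 lie outside the axes), with the median of each of 5 nearly equal groups by length (black) and the 9 genes (orange). The medians run down to -0.28 in the longest group, and *doc-1*, *doc-2*, *plp-1* and *het-6* lie below the median of their length.

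The split of calls over all genes changed with the scaling between libraries, while the 4 called genes among the 9 kept their direction. Of the 360 called genes, 125 were higher and 235 lower in the mutant. With each library centred on its median, 281 were higher and 140 lower, and the median log2 change over the 7208 genes was 0.01 in place of -0.09. With the scaling as deposited, 198 were higher and 174 lower without the third wild-type library, and 109 were higher and 115 lower with the length trend removed. The FPKM of all genes summed to 626049 to 639266 in the mutant libraries and 551935 to 572043 in the wild-type libraries. The centred log2 changes were -0.63 for *doc-1*, -0.996 for *doc-2*, -0.80 for *plp-1* and -1.06 for *het-6*, all called (limma), and *sec-9* was then called higher. Since RNA was taken from whole cultures, fewer cells that express a gene and less RNA per cell cannot be told apart.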

How the data were processed

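RNA was measured in 6 of the 22 samples of the series, and the ChIP-seq and MNase-seq samples were not analysed here. The authors depleted ribosomal RNA, made strand-specific libraries, aligned reads to NC12 with TopHat (TopHat2 2.0.14 in the submitters' processing notes) and deposited FPKM per annotated transcript from Cufflinks. The notes also name Cuffnorm, which scales libraries to each other, with a setting not given in the sources used here. The column names match strains, not single labelled replicates, and 0 columns were left unused.

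Transcripts (10785) were summed to 9730 genes. Positions and symbols came from the RefSeq gene table of NC12, which held 9729 of these 9730 genes. It holds no sequences, so none are shown. Values were tested as log2(FPKM + 1), a scale that understates changes of low genes, in the 7208 genes whose mean reached 1 FPKM, with limma 3.58.1 in R 4.3.3 (lmFit, eBayes with trend, two-sided, Benjamini-Hochberg, threshold 0.05). Single values were compared by exact permutation (scipy 1.17.1). The depth was the number of fragments at which low values of 184 transcripts came out within 0.1 of a whole number, with 210 bases subtracted from each length; it holds for low genes and covers counting error only. The fit was tested on simulated data first. The depth estimate was tried on simulated data only afterwards, with the estimated depths as the true ones. Python 3.11.15 was used for the rest.

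The members, lists and tests were chosen with earlier results of these data known. The text names the 9 genes, the listed genes found by symbol, *hH1*, and the flanking genes past the threshold. NCU07193 was named after its values were seen. Alternatives were the pseudocount (0.1), the filter, centring, quantile normalization, limma's variance settings, single transcripts, the length trend, and leaving out each library.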

Additional observations from a re-analysis of the deposited data

How the results depend on the processing

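The number of the 9 genes called was 4, and was 2 both with each transcript tested alone and with the length trend removed, 3 with a pseudocount of 0.1, without a filter, after quantile normalization and among genes whose mean reached 5 FPKM (where *pin-c* and *het-6* were not tested), and 5 with libraries centred. Without 1 library at a time it was 2 to 3. *doc-1* and *doc-2* were called in all 15 alternatives, *plp-1* in 10 of 15 and *het-6* in 3 of 14. No gene of the 9 that was called changed sign in any alternative. Among genes without a call, *het-c* was at 0.078 with the length trend removed, *vib-1* at -0.10 without the third mutant library and -0.022 without the second wild-type library (-0.10 to 0.11 over the 6 such fits), *fsd-1* at 0.013 with the length trend removed, and *tol* at 0.072 with libraries centred, 0.12 after quantile normalization, 0.18 with the length trend removed, and -0.13 to 0.024 over the fits without 1 library (0.0019 without the second and 0.024 without the third mutant library). Of the other nonself genes, 1 was called; it was 2 with robust variance, where *un-24* passed with an adjusted p of 0.04997 (limma, Benjamini-Hochberg), 0 with each transcript tested alone, and 0 to 1 without 1 library (in the genes whose mean reached 5 FPKM it was *un-24*, as *matA-1* was not tested). Of the flanking genes, 4 were called; it was 1 without a filter, 2 with libraries centred and 2 with the length trend removed, 0 without the variance trend and 0 with each transcript tested alone, and 0 to 4 without 1 library.

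Over all genes, 360 were called, and 188 without a filter, 135 without the variance trend, 45 with each transcript tested alone and 224 with the length trend removed. Without 1 library it was 52 to 372, lowest without the first wild-type library. The cause was not tested. Of the 9 genes, *het-6* had the fewest fragments in the mutant libraries, at most 25.03 in any of them at the estimated depths. No paired analysis was possible because the columns of the table carry no replicate number of the labels.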
